A study of Mus musculus with 12 samples.

Results

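Primary B lymphocytes labelled Tmem173-/-, after the gene that encodes STING, were exposed to 3'3'-cGAMP for 12 h and compared with control cells of the same genotype. The comparison rests on 6 of the 12 libraries of the study, chosen by genotype label: 3 libraries labelled Tmem173-/- cGAMP against 3 labelled Tmem173-/- control. Of 54532 genes in the count table, 24010 had at least 1 count in these 6 libraries, and 14473 passed a filter on low counts applied by group over all 12 libraries. That filter let in 780 genes through the wild type libraries alone. The wild type groups, with 3 control and 3 cGAMP libraries treated for the same 12 h, gave the reference response. The labels describe B lymphocytes sorted from 3 mice of each genotype and seeded in 96-well plates, so the 6 libraries of each genotype came from 3 mice. Neither the allele, the strain, the age, the cGAMP dose, nor what the control cells received was stated in the sources used here.

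STING, encoded by Tmem173, is a receptor of the endoplasmic reticulum that binds cyclic dinucleotides. Bound STING recruits the kinase TBK1, which phosphorylates the transcription factor IRF3, and NF-kB signalling is switched on alongside. The type I interferons made in this way act on the same and neighbouring cells and switch on the interferon-stimulated genes. 3'3'-cGAMP is a cyclic dinucleotide of bacteria, whereas the cyclic dinucleotide made by the mammalian enzyme cGAS has a different phosphate linkage. Other proteins that bind cyclic dinucleotides, transporters that carry them and enzymes that break them into purines are known, so a response without STING is conceivable. The comparison asks whether any such response was detectable and how large a response the data still allow.

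Total counts of the 6 libraries ranged from 26490593 to 31417833, with 18920 to 19404 genes detected and 1.75% to 2.26% of counts from the mitochondrial genome. The 6 markers of B cells, Ms4a1 (CD20) among them, summed to between 4711 and 5583 CPM (counts scaled to library size) in control and between 4765 and 5701 in cGAMP libraries. The summed markers of T cells (11 genes) lay between 176 and 209 CPM in control and between 174 and 199 in cGAMP libraries, nearly all of it Lck, with 4538 to 6431 counts in control libraries. The defining marker Cd3e had 0 to 4 counts in each of the 6 libraries. Neutrophil markers (10 genes, 3 of them at 0 in all 6 libraries) summed to at most 0.755 in control and 1.83 in cGAMP libraries, and natural killer cell markers (9 genes, 4 at 0) to at most 2.23 and 2.20. Platelet markers (7 genes) spanned 16.5 to 23.1 in control and 20.1 to 26.03 in cGAMP libraries. In wild type, Cd3e had 25 counts in control replicate 1 and 84 in cGAMP replicate 1, and at most 2 in the others. The neutrophil marker S100a9 had 107 and 217 counts in those libraries and at most 4 in the others. The part of other cell types in any result was not tested. In these bulk samples, fewer cells of a type and less RNA per cell cannot be told apart. Among genes of at least 5 CPM, the median difference between libraries of the same number in the 2 treatments was 0.08, 0.09 and 0.11 on the log2 scale, against 0.10 to 0.18 between libraries of the same group. The replicate numbers 1 and 2 were closer across the treatment than any pair of libraries within one.

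Tmem173 itself was counted as abundantly in the libraries labelled Tmem173-/- as in wild type. It measured 80.2, 94.7 and 103 CPM in Tmem173-/- control and 82.9, 101 and 95.9 CPM in Tmem173-/- cGAMP libraries, beside 91.2, 102 and 92.7 CPM in wild type control. The groups overlap, and the labels do not say which part of the gene the allele alters, so a count over the whole gene cannot check the genotype. Tmem173-/- below therefore means libraries labelled Tmem173-/-. Within them cGAMP left Tmem173 at a log2 fold change of 0.01 (95% interval −0.20 to 0.22). In wild type cells Tmem173 fell by 1.01 on the log2 scale (adjusted p = 8.1e-07, edgeR), to 44.7, 49.2 and 48.0 CPM, and the responses of the 2 genotypes differed (adjusted p = 6.4e-05).

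No gene passed the threshold in Tmem173-/- cells. Of 14473 genes tested, 0 (0%) had an adjusted p below 0.05 in edgeR's quasi-likelihood test with Benjamini-Hochberg adjustment, and the lowest adjusted p was 1. At an unadjusted p below 0.05 there were 203 genes, namely 132 higher (0.912%) and 71 lower (0.491%) with cGAMP, or 1.40% in all. With no effect a share of about 0.05 would pass, so this fit was conservative and could miss small changes. DESeq2 and limma-voom also called 0 genes, with 216 and 235 at an unadjusted p below 0.05. Wild type cells gave 3238 genes higher (22.4%) and 3683 lower (25.4%) in the same fit. A change of 2-fold or more upwards was found for 978 of them (6.76% of those tested) and downwards for 1004 (6.94%). The difference between the 2 responses passed for 4569 genes (31.6%).

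Some settings of the test made calls in Tmem173-/- cells. With the replicate number as a block, the fit on all 12 libraries called 0 genes, with 376 (2.60%) at an unadjusted p below 0.05. The blocked fit on the 6 Tmem173-/- libraries alone called 1, Ramp3, with 660 of 13700 tested genes at an unadjusted p below 0.05. That count is close to, and not above, the share of about 0.05 that would pass with no effect. With no filter on low counts 23 genes were called, 10 higher and 13 lower. Of those 23, 20 were among the genes that also pass the filter, Ramp3, Churc1 and Lars2 among them, and 4 had over 80% of their counts in a single Tmem173-/- library. Leaving out Tmem173-/- control replicate 1 raised the genes at an unadjusted p below 0.05 from 203 to 614, leaving out both replicate 1 libraries raised them to 424, and both again called 0.

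The data bound the response tightly where genes were expressed. There were 9486 genes of at least 5 CPM on average over the 6 libraries. The 95% interval of the response lay within 1.5-fold in either direction for 8950 of them (94.3%) and within 2-fold for 9407 (99.2%). Their median log2 fold change was −0.01, and from the 1st to the 99th percentile they ran from −0.23 to 0.30. Only 10 had an estimate of 1.5-fold or more and 3 an estimate of 2-fold or more. Those 3 were CT010467.1, annotated as a ribosomal RNA, Rn7sk, the small nuclear RNA that holds back transcription elongation, and Lars2, the mitochondrial leucyl-tRNA synthetase. All 3 varied widely between libraries of the same group. Lars2 measured 573, 357 and 1281 CPM in control and 308, 284 and 406 CPM in cGAMP libraries, and its interval ran from −2.90 to 0.97.

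Below 5 CPM the limits are wide. The median half-width of the interval was 1.17 on the log2 scale below 1 CPM (2827 genes), 0.62 from 1 to 5 CPM, 0.32 from 5 to 20 CPM and 0.20 above 100 CPM. Of the 4987 genes below 5 CPM, 325 (6.52%) were held within 1.5-fold and 1786 (35.8%) within 2-fold. An interval wholly beyond 1.5-fold was found for 8 genes, all with group means below 2 CPM, among them Gm4189 (−3.39), B930094E09Rik (2.37) and the small nucleolar RNA Snord91a (1.72). For those 3, no control library overlapped a cGAMP library, which follows largely from choosing them by their intervals. How many of all tested genes show no overlap was not counted, here or for genes below. Gm4189 and B930094E09Rik passed the filter on low counts only through the wild type libraries. Snord91a gave nearly the same value in wild type (1.70).

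**Figure D1:**
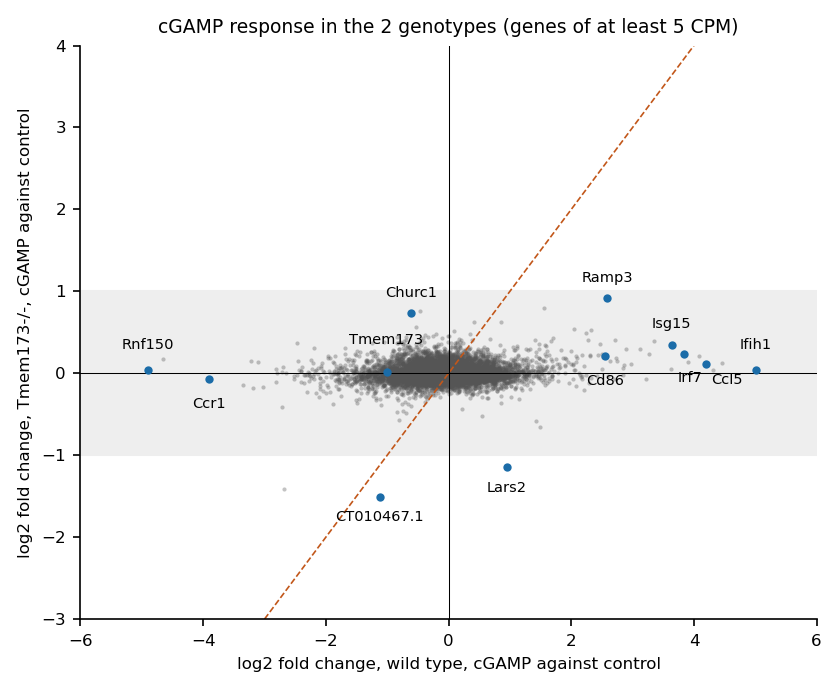
Each point is 1 of the 9486 genes of at least 5 CPM, with the log2 fold change of wild type cells on the horizontal and that of Tmem173-/- cells on the vertical axis; the grey band marks 2-fold and the dashed line equal responses. Wild type responses spread from Rnf150 (−4.90) to Ifih1 (5.00), while all but 3 genes of Tmem173-/- cells stay inside the band.

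Type I interferon genes were at or near the floor of detection in Tmem173-/- cells. Ifnb1, encoding interferon beta, had 0, 2 and 0 counts in control and 0 in each cGAMP library, against 8, 7 and 9 counts in the wild type cGAMP libraries. Ifna1 had 0 counts in each control library and 0, 4 and 0 in cGAMP libraries, while wild type cGAMP libraries held 107, 245 and 187. Ifna4 had 0 counts in all 6 Tmem173-/- libraries, against 122, 197 and 159 with cGAMP in wild type. A count of 0 allows up to 3 counts, or about 0.0955 to 0.113 CPM in these libraries. No fold change is given, since both Tmem173-/- groups are near that floor, and these limits cover counting error only. Ifng, interferon gamma, had counts in every library, 119, 92 and 72 in control and 125, 60 and 90 in cGAMP libraries, and the groups overlapped.

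The interferon-stimulated genes gave 0 calls in Tmem173-/- cells. Many of them carry the interferon-stimulated response element, a paired GAAA motif bound by IRF proteins and by the complex formed after interferon binds its receptor. The sequences below, each 60 bases of a RefSeq promoter (GRCm38.p6), show the element in 4 of the genes that rose in wild type cells and were not called in Tmem173-/- cells. Letters run 5′ to 3′ on the gene's strand, and capitals mark each match to GAAANNGAAA or, on the other strand, TTTCNNTTTC, with overlapping matches merged.
Ifit1 (chr19:34640779-34640838, plus strand): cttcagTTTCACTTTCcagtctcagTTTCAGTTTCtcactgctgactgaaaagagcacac
Isg15 (chr4:156200850-156200909, minus strand): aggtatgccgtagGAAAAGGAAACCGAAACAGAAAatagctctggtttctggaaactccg
Cxcl10 (chr5:92349068-92349127, minus strand): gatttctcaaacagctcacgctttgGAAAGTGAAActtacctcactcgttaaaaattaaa
Rsad2 (chr12:26456538-26456597, minus strand): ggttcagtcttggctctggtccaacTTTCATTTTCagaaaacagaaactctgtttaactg
The motif was found in 3.44% of 32851 promoter windows of 300 bases, on either strand. Of the 40 listed interferon-stimulated genes 30 had a window and 17 of these held it. Irf7 and Ramp3 had a window without a match. With 67.7% of tested genes and 75.0% of this list matched to a window, a comparison of responses by motif would be void and was not made.

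Isg15, a ubiquitin-like protein attached to other proteins, measured 12.6, 10.3 and 12.0 CPM in Tmem173-/- control and 19.1, 13.2 and 12.4 CPM in cGAMP libraries. Replicate 1 of the cGAMP group was the highest, and the groups overlapped. Its log2 fold change was 0.35 ± 0.54 (SE, adjusted p = 1, edgeR), against 3.64 ± 0.54 in wild type, and the difference passed (adjusted p = 0.011). Ifit1, which binds foreign RNA ends, measured 3.69, 2.89 and 6.02 CPM in control and 6.10, 2.83 and 3.50 CPM with cGAMP, and the wild type cGAMP libraries held 349, 398 and 380 CPM. Rsad2 (viperin), an antiviral enzyme, ran at 1.47, 2.25 and 3.43 CPM against 3.39, 2.23 and 2.14 CPM. In both genes the 2 groups overlapped.

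Irf7, the transcription factor that amplifies interferon production, measured 9.42, 13.5 and 19.99 CPM in control and 17.5, 17.3 and 15.7 CPM in cGAMP libraries. The control libraries spread more than the cGAMP libraries and enclosed them. Ifih1 (MDA5), a sensor of double-stranded RNA, gave the narrowest interval among the 10 strongest wild type rises. It stood at 9.48, 8.13 and 12.4 CPM in control and 10.8, 9.55 and 10.5 CPM with cGAMP, a log2 fold change of 0.04 (95% interval −0.37 to 0.50), where wild type rose by 5.00 ± 0.20 (SE). Over all 40 interferon-stimulated genes the median log2 fold change was 0.15 in Tmem173-/- cells, from −0.12 for Ifitm3 to 0.54 for Ifit3b, and 2.48 in wild type cells, where 38 of the 40 rose. None of the 40 reached an unadjusted p below 0.05 in Tmem173-/- cells.

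The limits on this list depend on which libraries set the spread. In the fit of all 12 libraries 22 of the 40 intervals lay within 2-fold, and in the fit of the 6 Tmem173-/- libraries 34 did. The median standard deviation of the 40 genes among wild type control libraries was 0.63 on the log2 scale, against 0.29 among Tmem173-/- control libraries. The mean log2 CPM of the list was 3.90, 4.17 and 4.49 in Tmem173-/- control libraries and 4.52, 4.37 and 4.25 in Tmem173-/- cGAMP libraries. Taken by replicate number, the median difference of the list was 0.44 in replicate 1, 0.16 in replicate 2 and −0.25 in replicate 3. The libraries of the 2 treatments overlapped, and the 3 medians did not share a direction. Of the 40 genes, 10 were higher with cGAMP in all 3 same-numbered pairs and 0 lower, against 11.6% and 13.1% of all tested genes.

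**Figure D2:**
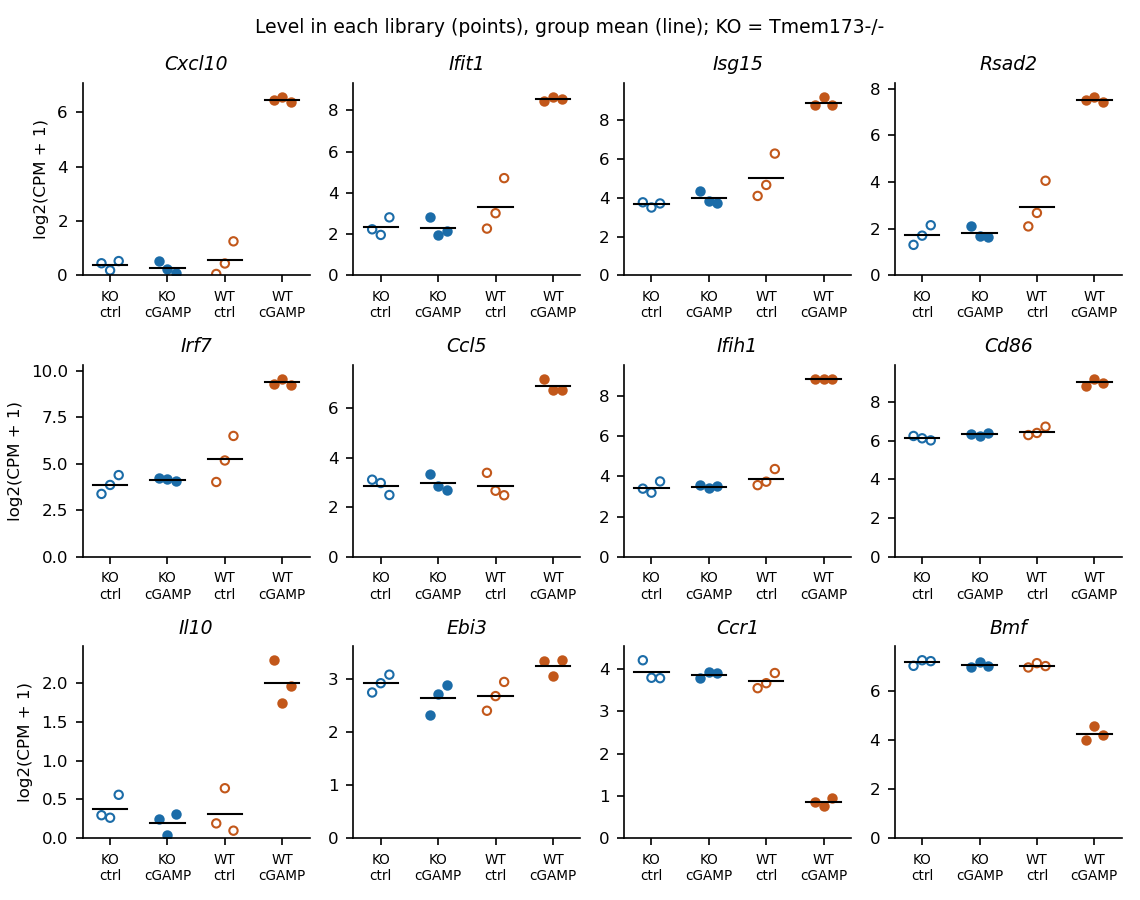
Level of 12 genes as log2(CPM + 1) in each library (points) with the group mean (line), for Tmem173-/- (blue) and wild type (orange), control (open) and cGAMP (filled). The Tmem173-/- groups overlap for all 12 genes, and the wild type cGAMP libraries stand apart from their controls in all 12.

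Chemokines and cytokines likewise gave 0 calls, and many had low counts. Cxcl10, a chemokine that draws activated T cells, measured 0.360, 0.134 and 0.438 CPM in Tmem173-/- control and 0.447, 0.166 and 0.0679 CPM in cGAMP libraries, against 86.7, 92.7 and 81.5 CPM in wild type cGAMP libraries. Ccl5, another T cell chemokine, measured 7.65, 6.89 and 4.63 CPM in control and 9.08, 6.22 and 5.54 CPM with cGAMP. Its log2 fold change of 0.11 (95% interval −0.55 to 0.74) stood beside 4.19 in wild type. Il10, the anti-inflammatory cytokine of regulatory B cells, had 0.229, 0.202 and 0.474 CPM in control and 0.186, 0.0333 and 0.238 CPM with cGAMP. Its log2 fold change of −0.96 had an interval from −2.84 to 0.61, and in wild type cells it rose by 3.53. Il10 passed the filter on low counts only through the wild type libraries.

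The subunits of interleukin 35, Ebi3 and Il12a, were both above 4 CPM and better bounded. Ebi3 measured 5.69, 6.55 and 7.44 CPM in control and 4.02, 5.53 and 6.39 CPM with cGAMP, a log2 fold change of −0.30 (95% interval −0.74 to 0.13). Each cGAMP library was below the control library of its number, but the groups overlapped and the change was not called. Il12a gave −0.09 (95% interval −0.43 to 0.27). Of the 18 tested cytokines and chemokines, Il6 and Il15 were higher at an unadjusted p below 0.05 and 0 lower, beside 0.912% and 0.491% of all tested genes. Both were well under 5 CPM. Il6, a growth factor of plasma cells, ran at 0.229, 0.0336 and 0.109 CPM in control and 0.670, 0.200 and 0.408 CPM with cGAMP. It passed the filter on low counts only through the wild type libraries. Il15, a survival factor of natural killer and memory T cells, had a log2 fold change of 1.71 (95% interval 0.30 to 2.97). Neither was called (adjusted p = 1 for both, edgeR).

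Cd86, the costimulatory ligand for T cells, measured 74.3, 68.3 and 63.3 CPM in control and 79.8, 73.9 and 84.0 CPM in cGAMP libraries, so the groups overlapped, while each same-numbered pair was higher with cGAMP, by 0.10, 0.11 and 0.41 on the log2 scale. Its log2 fold change of 0.21 ± 0.12 (SE) was not called (adjusted p = 1, edgeR), its interval ran from −0.03 to 0.45 (0.01 to 0.41 with the replicate block, adjusted p = 1.00), and the wild type rise of 2.55 ± 0.12 differed from it (adjusted p = 9.8e-08). Cd80, the partner ligand, gave 0.29 (95% interval −0.45 to 1.01) against 2.92 in wild type.

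The genes that fell most in wild type cells had intervals around 0 in Tmem173-/- cells. Crisp3, a secreted protein, had the widest of the 10, from −0.57 to 0.88 around 0.17, against −4.66 in wild type. Rnf150, a ring finger protein, measured 16.3, 15.5 and 16.3 CPM in control and 17.9, 15.9 and 15.8 CPM with cGAMP. Its log2 fold change was 0.04 (95% interval −0.21 to 0.29), against −4.90 in wild type. Ccr1, a chemokine receptor, gave −0.08 (95% interval −0.35 to 0.23) against −3.91. Bmf, which promotes apoptosis by binding BCL2 family proteins, measured 127, 149 and 145 CPM in control and 124, 142 and 126 CPM with cGAMP, or −0.11 (95% interval −0.33 to 0.12) against −2.82. The groups overlapped in all 3. Pglyrp1, a protein that binds bacterial cell walls, gave −0.18, with cGAMP libraries at 15.3, 16.8 and 15.8 CPM just below the controls at 17.5, 18.3 and 18.4 CPM. Nfam1, an activating receptor, gave 0.14, Sema5a, a semaphorin, −0.17, and Anxa1 (annexin A1) 0.05. For all 10 of the strongest wild type falls the Tmem173-/- interval lay within 2-fold.

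**Figure D3:**
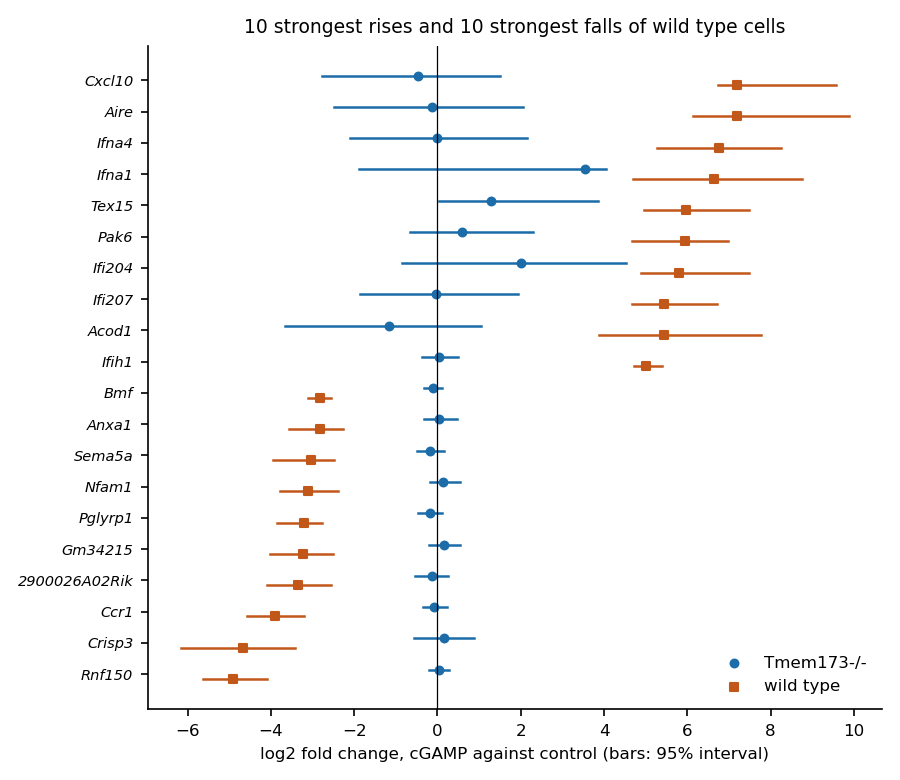
Log2 fold change with 95% interval for the 10 genes that rose most and the 10 that fell most in wild type cells, in Tmem173-/- (blue circles) and wild type (orange squares). Intervals of the falling genes lie within 2-fold around 0 in Tmem173-/- cells, Crisp3 being the widest; those of the rising genes are wide for all but Ifih1, and the others were below 1 CPM there.

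Taken over the whole wild type response, the median difference in Tmem173-/- cells was near 0 and uneven across replicate numbers. The 978 genes at least 2-fold higher in wild type had a median log2 fold change of 0.05 in Tmem173-/- cells against 1.56 in wild type. Some of them passed the filter on low counts only through the wild type libraries where they are high, so this median is a description; 823 were tested in the fit of the 6 Tmem173-/- libraries alone, with a median of 0.06. Over all tested genes the Tmem173-/- median was −0.00290. Of the 978, 321 had at least 5 CPM. Their median was 0.03, and the response differed from wild type for 311. Their interval lay within 2-fold for 294 (91.6%), against 99.2% of all genes of that level. Over all 978 the interval lay within 2-fold for only 477 (48.8%), against 77.3% of all tested genes. The 1004 genes at least 2-fold lower in wild type had a Tmem173-/- median of −0.01, and 772 of them (76.9%) were held within 2-fold. Of the 536 among them with at least 5 CPM, 532 were held within 2-fold and 532 differed from wild type. The test of the difference uses the wild type response that chose these genes. The counts of 311 and 532 that differed therefore follow largely from the choice. Over all tested genes 31.6% differed.

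By replicate number, the 978 rising genes had median differences of 0.17, −0.01 and 0.03, the largest in replicate 1. Their mean log2 CPM was 1.23, 1.22 and 1.24 in Tmem173-/- control and 1.46, 1.21 and 1.29 in Tmem173-/- cGAMP libraries, against 3.06, 3.02 and 2.99 in wild type cGAMP libraries. Without Tmem173-/- cGAMP replicate 1 the median was −0.00248, and without both replicate 1 libraries −0.000531. Of the 321 with at least 5 CPM, 58 (18.1%) were higher with cGAMP in all 3 same-numbered pairs, against 10.7% of all genes of that level, and 21 (6.54%) were lower in all 3, against 13.7%. Across the 9486 genes of at least 5 CPM the responses of the 2 genotypes had a Pearson correlation of 0.10 and a Spearman correlation of 0.07, over genes that share the same 12 libraries and are not independent replicates.

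The pathway lists, only some of them for routes that could answer cGAMP without STING, showed no called gene. The 26 pathway lists held 510 distinct tested genes, of which 3 (0.588%) were higher and 4 (0.784%) lower at an unadjusted p below 0.05, beside 0.912% and 0.491% of all tested genes. Of the 435 with at least 5 CPM, 419 had an interval within 2-fold. The medians of the lists ran from −0.06 to 0.15, the highest being the interferon-stimulated genes.

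Among components of the STING route, 19 of 20 tested genes were held within 2-fold. The exception was Ifi204, a DNA sensor of the PYHIN family with under 0.3 CPM in each Tmem173-/- library and 17.8 to 26.7 CPM in wild type cGAMP libraries. Tbk1, the kinase recruited by STING, gave 0.04 (95% interval −0.13 to 0.20) and Irf3, its substrate, −0.04 (95% interval −0.25 to 0.17). The transporters and enzymes that carry or break down cyclic dinucleotides were all 13 held within 2-fold, with a median of −0.06. Slc19a1, a folate carrier that imports cyclic dinucleotides, gave −0.11 (95% interval −0.40 to 0.17), and Enpp1, the hydrolase that degrades extracellular cGAMP of the mammalian type, gave −0.14 (95% interval −0.35 to 0.08), with cGAMP libraries at 25.1, 29.4 and 27.2 CPM below the controls at 29.6, 30.4 and 29.8 CPM. Smpdl3a, a phosphodiesterase, had the lowest value at −0.23, with 11.2, 13.5 and 10.03 CPM in control and 8.82, 11.5 and 9.34 CPM with cGAMP.

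Other nucleic acid sensors and cyclic dinucleotide binders had 22 of 23 tested members within 2-fold and a median of 0.02. Ddx41, a helicase reported to bind cyclic dinucleotides, gave −0.04 (95% interval −0.20 to 0.11). Zbp1, a sensor of Z-form nucleic acid, was the highest of the list at 0.18 (95% interval −0.32 to 0.70). Purine receptors and purine handling genes, which would see breakdown products, had 19 of 22 within 2-fold and a median of 0.02. Adora2a, the adenosine receptor coupled to cyclic AMP, gave −0.14 (95% interval −0.42 to 0.14). Targets of cyclic AMP and CREB had 15 of 15 within 2-fold and a median of −0.03, with Crem, a transcription factor that feeds back on this route, highest at 0.16.

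Immediate early genes, which respond fast and briefly to many receptors, had 22 of 24 within 2-fold. Egr1 and Fosl1, both transcription factors, were lower at an unadjusted p below 0.05. Egr1 measured 145, 135 and 134 CPM in control and 117, 119 and 115 CPM in cGAMP libraries, so all 3 cGAMP libraries were below all 3 controls. The log2 fold change was −0.23 (95% interval −0.39 to −0.08) and was not called (adjusted p = 1, edgeR); wild type gave −0.83. The NF-kB list had 24 of 25 within 2-fold and a median of −0.03, with Icam1, an adhesion molecule, at −0.15 (95% interval −0.32 to 0.02).

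Lists that describe the state of the B cell also gave 0 calls. All 28 genes that mark B cell identity or carry receptor signals, all 20 of MHC class I presentation and all 16 of MHC class II presentation had intervals within 1.5-fold. MHC class II genes had a median of −0.06 against −1.26 in wild type. Cell cycle genes had a median of −0.02 against 0.94 in wild type, with 23 of 28 within 2-fold. In the stress lists, all 25 genes of the unfolded protein and integrated stress response and all 25 tested of p53 targets and apoptosis were within 2-fold. All 20 of cholesterol synthesis were as well. Heat shock proteins had only 11 of 16 within 2-fold, and the antioxidant and metal response, which holds Hmox1, 11 of 16. Ern1, the IRE1 sensor of unfolded protein, gave −0.29 (95% interval −0.54 to −0.03), at an unadjusted p below 0.05. Hmox1, heme oxygenase, was lower at an unadjusted p below 0.05, with 2.16, 2.35 and 2.08 CPM in control and 1.75, 0.732 and 0.985 CPM in cGAMP libraries, and was not called. Its groups did not overlap.

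**Figure D4:**
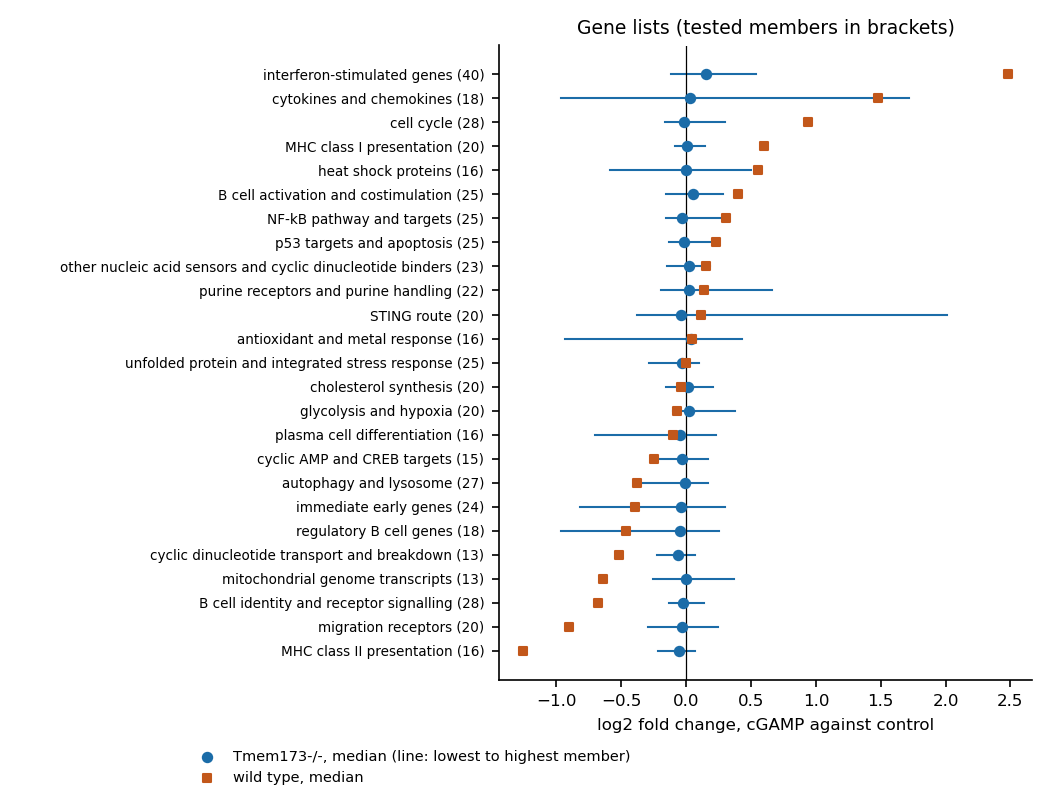
Median log2 fold change of each pathway list in Tmem173-/- cells (blue circle, line from the lowest to the highest member) and in wild type cells (orange square). The list of interferon genes is left out because its members lie at the floor of detection. Tmem173-/- medians stay between −0.06 and 0.15, while wild type medians run from −1.26 to 2.48.

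The genes of lowest p in the blocked fit differed in the same direction in all 3 same-numbered pairs, which choosing by that p favours. Of all tested genes, 11.6% were higher and 13.1% lower in all 3 pairs. Ramp3 (chr11:6658521-6677475 in the authors' table, GRCm38, plus strand) encodes a receptor activity-modifying protein that escorts the receptors of adrenomedullin and calcitonin peptides. It measured 7.78, 3.96 and 2.63 CPM in control and 13.5, 7.96 and 5.88 CPM in cGAMP libraries. Each cGAMP library was above the control of its number, by 0.79, 0.99 and 1.14 on the log2 scale, while the groups overlapped because replicate 1 was high in both. The log2 fold change was 0.91 ± 0.40 (SE, adjusted p = 1) without the block. With the block it was not called over all 12 libraries (adjusted p = 0.11) and was called in the 6 Tmem173-/- libraries alone (0.97, adjusted p = 0.027, edgeR). DESeq2 with the block, an alternative added after the data were seen, also called it (adjusted p = 0.00021) and no other gene. In wild type Ramp3 rose by 2.58 (adjusted p = 0.00033), and the smaller Tmem173-/- response differed from it (adjusted p = 0.044).

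The other genes with the lowest p in the blocked fit were not called in it (adjusted p = 1.00 for each). Tbc1d4, a regulator of glucose transporter traffic, measured 17.4, 9.88 and 6.38 CPM in control and 26.4, 12.8 and 9.85 CPM with cGAMP. Serpinb6b, a protease inhibitor, measured 13.9, 9.10 and 6.02 CPM and 18.5, 11.2 and 8.70 CPM. Replicate 1 was the highest in both treatments, so the groups overlapped although each pair differed upwards. Il1rn, the interleukin 1 receptor antagonist, went from 0.752, 0.571 and 0.401 CPM to 2.12, 0.932 and 1.05 CPM, and Npr1, a natriuretic peptide receptor, from 0.131, 0.168 and 0.146 CPM to 0.819, 0.632 and 0.306 CPM. These 2 had no overlap between groups, a trait not counted over all tested genes. Of the 10 genes with the lowest blocked p, 8 were called in wild type and 7 of these in the same direction, where 47.8% of all tested genes were called in wild type in either direction. Of the 10 with the lowest p without the block, 4 were called in wild type, 3 of them in the same direction. Npr1, in both sets, passed the filter on low counts only through the wild type libraries, where it is high. Its rise in wild type is therefore no separate result.

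The direction in wild type was also counted for the genes at an unadjusted p below 0.05. Of the 252 that were higher in the blocked fit, 85 (33.7%) were called higher in wild type, against 22.4% of all tested genes, and 57 (22.6%) were called lower. Of the 124 that were lower, 53 (42.7%) were called lower in wild type, against 25.4% of all tested genes. Without the block the shares were 38 of 132 (28.8%) and 23 of 71 (32.4%). The 2 genotypes share no library, but share the estimate of spread. Some of the 85, Npr1 and Il6 among them, passed the filter on low counts only through the wild type libraries.

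**Figure D5:**
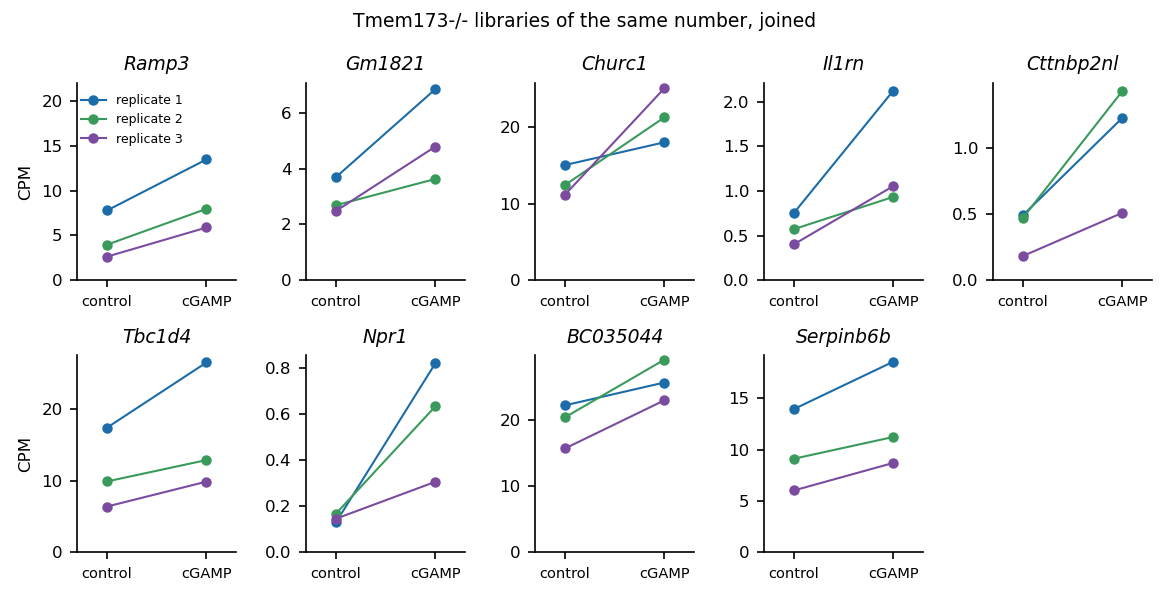
CPM of the 9 genes with a higher level among the 10 of lowest p in the blocked fit, with lines joining Tmem173-/- control and cGAMP libraries of the same replicate number. All lines rise, which choosing by blocked p favours. Replicate 1 is the highest of both treatments for genes that include Ramp3, Tbc1d4, Serpinb6b and Il1rn.

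Some genes with a low unadjusted p had estimates opposite to the wild type direction. They were no larger a share than among all tested genes. Of the 132 higher at an unadjusted p below 0.05, 22 (16.7%) were called lower in wild type, against 25.4% of all tested genes. Of the 71 lower, 13 (18.3%) were called higher, against 22.4% of all tested genes. The genes named here passed the threshold in the edgeR fit neither with nor without the block. With no filter on low counts Churc1 (adjusted p = 0.00021, edgeR), Znhit3 (adjusted p = 0.0021) and Mrps18c (adjusted p = 0.047) did. That setting also called CT010467.1 (adjusted p = 2.5e-37, edgeR) and Lars2 (adjusted p = 2.5e-22), which varied widely between libraries of the same group. Its calls are therefore weak support. Churc1, a zinc finger protein, measured 15.0, 12.4 and 11.2 CPM in control and 18.02, 21.3 and 25.1 CPM with cGAMP, with no overlap. Its log2 fold change of 0.74 ± 0.19 (SE, adjusted p = 1) differed from the wild type value of −0.61 (adjusted p = 0.0014). Cd9, a tetraspanin of regulatory B cells, gave 0.26 (95% interval 0.01 to 0.51) against −1.27. Ctsw, a protease of cytotoxic lymphocytes, gave −1.27 against 1.47. Znhit3, a zinc finger protein, and Mrps18c, a mitochondrial ribosomal protein, were among the 10 lowest p without the block, at 0.63 and 0.52, and were not called in wild type (0.41 and 0.08).

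Differences by exonic length were uneven across lengths and replicates. Genes with 500 to 1000 exonic bases (1368 genes of at least 5 CPM) had median differences of −0.05, 0.04 and 0.12 in replicates 1, 2 and 3. Genes of up to 500 bases (223 genes) had −0.03, 0.08 and −0.12, genes of 1000 to 2000 bases (4114 genes) −0.02, −0.00678 and 0.01, and genes of 2000 to 4000 bases 0.00397, −0.00808 and −0.04. Znhit3 has 747 exonic bases, Mrps18c 481 and Churc1 1724. The part of length in their values was not tested. Reads of Gm1821 and Rpl9-ps4, annotated as pseudogenes, may be shared with their parent genes, so their values are uncertain.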

How the data were processed

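Poly-A RNA of 12 B cell libraries was measured by RNA sequencing. Per the submitters' processing notes, fastp, STAR and featureCounts were used with GRCm38 and mm10; versions, annotation release and strandedness are not given in the sources used here. The authors deposited whole-number counts per gene, and FPKM values per gene, which served an alternative, on log2(FPKM + 1).

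The tests used edgeR 4.0.16 under R 4.3.3: filterByExpr by group (minimum count 10, smallest group 3), TMM, robust quasi-likelihood fits with 4 group means over all 12 libraries, two-sided tests, and Benjamini-Hochberg adjustment within each contrast at 0.05. Intervals of 95% came from limma-voom (limma 3.58.1); they are for single genes. Log2 CPM used a prior count of 2. DESeq2 1.42.0, other scalings and filters, the replicate block and left-out libraries were alternatives. The procedure was tested on simulated data.

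Deviations of same-numbered libraries from their group means correlated at 0.61, 0.26 and 0.38 in Tmem173-/- (9486 genes), so the number was taken to pair them, although control 2 with cGAMP 3 (0.22) and control 3 with cGAMP 2 (0.11) also correlated above 0. The labels name 3 mice per genotype but do not state pairing. In wild type the same-numbered deviations correlated at 0.49, 0.28 and 0.05, and control 3 with cGAMP 2 at 0.11. Replicate 3 is therefore not clearly paired there, although the block over all 12 libraries pairs by number in both genotypes.

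Named genes were Tmem173, called genes, the 10 of lowest p, the 5 highest and 5 lowest of at least 5 CPM, the 10 largest wild type rises and falls, the 5 wild type responders of at least 2-fold with the largest same-direction change, preset cytokine and interferon genes, and each list's extremes. The 10 of lowest blocked p and other list members were chosen after their values were seen. Members and lists were chosen with earlier results of these data known. Separate cultures are not stated, so p-values may measure technical spread. Some genes that meet the naming rule are not reported here.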

Additional observations from a re-analysis of the deposited data

Results flagged for a closer look

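The cGAMP responses of the 2 genotypes, each with 3 control and 3 cGAMP libraries, differed for 4569 genes by the test of the difference itself (edgeR, adjusted over 14473 genes). The difference, Tmem173-/- minus wild type on the log2 scale, was above 0 for 2532 and below 0 for 2037. Among the named genes it was below 0 for Npr1 (−2.14), Gm4189 (−4.01), Gm13822 (−1.68), Ramp3 (−1.67), Gm24187 (−1.999), Cxcl10 (−7.67), Aire (−7.31), Tex15 (−4.70), Pak6 (−5.34), Ifi207 (−5.47), Acod1 (−6.60), Ifih1 (−4.96), Ifit1 (−4.98), Isg15 (−3.28), Irf7 (−3.60), Rsad2 (−4.39), Ccl5 (−4.08), Cd86 (−2.34), Il10 (−4.49), Ebi3 (−0.95), Tbc1d8 (−1.80) and Ifit1bl1 (−1.76). It was above 0 for Tmem173 (1.022), Churc1 (1.34), Rpl9-ps4 (1.68), Gm10076 (1.23), Rnf150 (4.94), Crisp3 (4.83), Ccr1 (3.84), 2900026A02Rik (3.21), Gm34215 (3.37), Pglyrp1 (3.02), Nfam1 (3.24), Sema5a (2.86), Anxa1 (2.87) and Bmf (2.71). Npr1, Gm4189, Aire, Tex15, Pak6, Acod1 and Il10 passed the filter on low counts only through the wild type libraries. Many of the others were named for their wild type response, which is part of the difference. Their differences therefore follow largely from that choice and are no separate result.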

How the results depend on the processing

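The count of 0 called genes in Tmem173-/- cells held with median-of-ratios size factors, library totals, limma-voom, DESeq2, log2(FPKM + 1) and a minimum of 5 CPM. The 6 Tmem173-/- libraries alone and the replicate block on 12 libraries also gave 0. Leaving out each Tmem173-/- library, or each same-numbered Tmem173-/- pair, kept it at 0. No wild type library was left out for this count. It became 23 with no filter on low counts, 1 with the replicate block on the 6 libraries alone, and 1 with the replicate block in DESeq2; the cause was not tested. Leaving out 1 Tmem173-/- library gave medians from −0.00248 to 0.104 for genes at least 2-fold higher in wild type. For those at least 2-fold lower it gave −0.0501 to 0.0112. The difference between the responses passed for 3612 to 4509 genes when 1 Tmem173-/- library was left out. It passed for 3015 without both Tmem173-/- replicate 2 libraries and 5660 with the replicate block. Intervals within 2-fold numbered 11193 of 14473, and 10717 to 10765 with 1 Tmem173-/- library left out. The block changed no other call in Tmem173-/- cells. Depth limits genes below 5 CPM.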

Other observations

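Transcripts that B cells are not known to make stood in single Tmem173-/- libraries. Alb, which encodes serum albumin made by the liver, had 357 counts in Tmem173-/- control replicate 3 and 0 in every other library, and Cyp3a11, a liver cytochrome, had 47 counts there and 0 elsewhere. S100a8, a neutrophil protein, had 21 counts in Tmem173-/- cGAMP replicate 3, 1 count in control replicate 3 and 0 in the other Tmem173-/- libraries, and 55 and 167 in the wild type replicate 1 libraries. Alb and Cyp3a11 did not pass the filter on low counts, and all 3 genes were called when that filter was left out.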
